A study of Zea mays with 6 samples.

Results

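DNase-seq was used to map accessible chromatin in the maize inbred line B73, in the inner stem of V2-stage seedlings (V2-IST; the core of the shoot, stripped of its outer foliage) and in husk, the leaves wrapped around the ear, of which the inner ones were sampled at silk emergence. V2-IST was covered by 2 libraries from 2 biological replicates and husk by 3 libraries from 2 biological replicates, 1 library being a technical replicate. Each sample pooled material of several plants. DNase I-digested naked DNA prepared from husk served as control in peak calling, and the sites of DNase I hypersensitivity (DHSs) of each tissue form 1 integrated list. The DHSs described here are those of V2-IST that overlapped no husk DHS by 1 bp or more and that were separated from the nearest husk DHS by a gap, measured from edge to edge, of over 5000 bp. They were thus chosen by the measured positions in both lists, and are called far V2-IST-only DHSs below. The rule selected 4316 of the 18485 V2-IST DHSs, which is 23.3% of that list (Wilson 95% interval 22.7% to 24.0%). This share was fixed by the rule and is given as a description.

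Such sites are short stretches of the genome that are hypersensitive to the nuclease DNase I because nucleosomes are absent or loosely placed, as is typical of promoters, enhancers and other sequences bound by transcription factors. Enhancers can act on a gene over a long distance. In maize, well-studied examples lie far upstream of the gene they control, with stretches of transposable elements in between. A DHS found in a single tissue and away from the DHSs of another tissue is therefore a kind of site that is examined when tissue-specific regulatory DNA is mapped. The lists hold positions only, so which of these DHSs are promoters, enhancers or something else was not analysed here, and no gene was assigned to them.

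Each list has a chromosome, a start and an end per DHS and no signal value, read number or column per replicate. The read depth behind a single DHS cannot be taken from the lists. Read and peak numbers of the single libraries, which the study gives, were not used here, so no difference between the tissues is set against the spread between replicates. Values below describe the lists without a test, because the measured positions in both lists selected the DHSs. Intervals are 95% intervals for counting error, computed as if each DHS were independent of its neighbours, although DHSs close together are not. How often a pattern recurred on the 10 chromosomes is given where it was counted, which was not done for every pattern. Absence from the husk list means that no integrated peak was kept there. A site open in 1 husk replicate, or below the threshold of the peak caller in husk, would look the same.

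The V2-IST list fell into 3 classes. Besides the 4316 far V2-IST-only DHSs, 2087 DHSs were V2-IST-only with a husk DHS within 5 kb (near V2-IST-only DHSs), and 12082 overlapped a husk DHS (shared DHSs). The far DHSs thus made up 67.4% of the 6403 V2-IST-only DHSs (66.2% to 68.5%). They covered 2.25 Mb, or 17.9% of the sequence covered in V2-IST, a smaller portion than their portion of the number because they were narrower than the rest. By distance alone, most of the genome was within reach of the rule. The study states that many reads from the repetitive maize genome could not be mapped uniquely. Sequence without unique reads cannot yield a DHS in either list. It was not subtracted from the lengths, densities and husk-free stretches given here and below. Of the 2104 Mb spanned by the 10 chromosomes, 93.7% lay over 5 kb from any husk DHS, and this sequence held 2.19 far V2-IST-only DHSs per Mb.

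With the lists exchanged, 2048 of 15261 husk DHSs were husk-only and over 5 kb from any V2-IST DHS, which is 13.4% (12.9% to 14.0%). Far V2-IST-only DHSs were thus 2.11 times as numerous as far husk-only DHSs, with a ratio of 1.85 to 2.44 on single chromosomes and above 1 on 10 of 10 chromosomes. The V2-IST list was 1.21 times as long as the husk list, and the numbers of shared DHSs in V2-IST and husk had a ratio of 0.994, so the surplus of V2-IST DHSs lay among the DHSs of a single list. The ratio changed with the DHSs that entered the lists. When the 15261 widest V2-IST DHSs were set against all husk DHSs it was 0.95, with V2-IST DHSs under 284 bp left out and narrow husk DHSs kept, and it was 0.99 for the 10000 widest DHSs of each list, a comparison chosen after seeing the data. When DHSs under 300 bp were removed from both lists, also chosen afterwards, it was 2.32. In each comparison, removing DHSs from 1 list could move DHSs of the other list into its far class. These ratios are therefore not those of wide DHSs under the main rule. List length and the narrowest width kept changed together in the comparisons that gave 0.95 and 0.99. For the 10000 widest DHSs each list was cut at its own width. The separate parts of list length and narrowest width in the ratio were not tested.

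The gap to the nearest husk DHS was mostly much larger than the limit. Its median was 45.1 kb (42.7 to 47.7 kb), the middle 50% ranged from 14.5 to 113 kb, and the extremes were 5012 bp and 2255 kb. A gap of over 50 kb was found for 2046 far V2-IST-only DHSs (47.4%), and a gap of over 100 kb for 1208 (28.0%). Between 5 and 10 kb from husk DHSs there were 719 of them (16.7%), between 10 and 20 kb 647 (15.0%), between 20 and 50 kb 904 (20.9%), between 50 and 100 kb 838 (19.4%), between 100 and 200 kb 684 (15.8%) and beyond 200 kb 524 (12.1%). No single distance class thus dominated. The far husk-only DHSs had a similar median gap to V2-IST DHSs, 41.6 kb (38.6 to 46.2 kb). The husk DHS nearest to a far V2-IST-only DHS was itself shared with V2-IST in 82.1% of cases, against 79.6% of all husk DHSs, and was a far husk-only DHS in 13.5% of cases. The median gap from a far V2-IST-only DHS to the nearest far husk-only DHS was 355 kb.

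**Figure D1:**
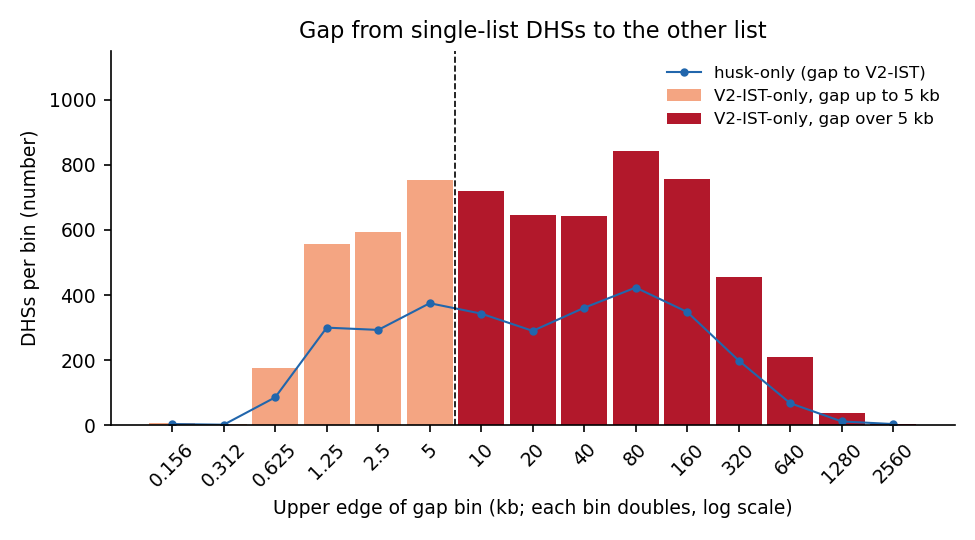
Number of V2-IST-only DHSs (bars) by their gap to the nearest husk DHS in kb, in bins that double in width, and of husk-only DHSs by their gap to the nearest V2-IST DHS (blue points). The dashed line marks the limit of 5 kb; numbers in the bins on either side of it were 752 and 719, so the limit falls within a continuous range, and the tallest bin, 40 to 80 kb, holds 841 far V2-IST-only DHSs.

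The limit of 5 kb did not mark a break in the distances. The 3 DHSs just inside the rule lay on chromosome 4 from 139768302 to 139768608, on chromosome 9 from 20246015 to 20246496 and on chromosome 4 from 184806866 to 184807407, with gaps of 5012, 5012 and 5013 bp. Just outside it, V2-IST-only DHSs on chromosome 5 from 1717852 to 1718896, on chromosome 5 from 178394164 to 178394793 and on chromosome 2 from 24999967 to 25000482 had gaps of 4996, 4986 and 4986 bp. All coordinates are on the AGPv4 assembly and count from 1.

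At the other extreme, 6 far V2-IST-only DHSs lay over 1 Mb from the husk list. The most remote DHS, on chromosome 3 from 77164095 to 77164254, measured 160 bp and lay 2255 kb from the nearest husk DHS. The second and the third in this order were found in the same husk-free stretch of 6.57 Mb, on chromosome 3 from 79459821 to 79460556 (736 bp, gap 2019 kb) and from 80032602 to 80032921 (320 bp, gap 1447 kb). These neighbours were also far from each other, since 572 kb separated the second from the third. The fourth lay on chromosome 7 from 81841226 to 81841763 (538 bp, gap 1287 kb). The fifth lay on chromosome 4 from 105334088 to 105334240 (153 bp, gap 1274 kb), and its nearest V2-IST DHS, a shared one, was also 1274 kb away. All 5 were in part 4 or part 5 of their chromosome when it was divided into 10 equal parts, where DHSs were sparse in both lists.

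Far V2-IST-only DHSs were narrow. Their median width was 378 bp (369 to 385 bp), against 449 bp (427 to 469 bp) for near V2-IST-only DHSs and 536 bp (527 to 545 bp) for shared DHSs. The middle 50% of the far DHSs had widths between 265 and 656 bp. Their median was below that of shared DHSs on 10 of 10 chromosomes and below that of near V2-IST-only DHSs on 9 of 10, the exception being chromosome 10 with 388 against 376 bp. Far husk-only DHSs had a median of 366 bp (355 to 375 bp), and on 7 of 10 chromosomes the far V2-IST-only DHSs had the larger median. The median widths of the far classes of the tissues were thus close, and their intervals overlapped. Width is not independent of the rule, since a wider DHS more easily overlaps a DHS of the other list and then counts as shared.

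The width distributions of those classes parted at the wide end. Of the far V2-IST-only DHSs, 11.3% (10.4% to 12.3%) were wider than 1000 bp, against 5.42% (4.52% to 6.49%) of the far husk-only DHSs, 15.7% of the near V2-IST-only DHSs and 23.0% of the shared DHSs. All husk DHSs were also less often this wide than all V2-IST DHSs, 16.2% against 19.4%. At the narrow end the far classes were alike, with 32.9% (31.5% to 34.3%) and 35.2% (33.1% to 37.3%) under 300 bp, and both exceeded the shared DHSs, of which 15.0% were under 300 bp. Under 200 bp there were 10.3% of the far V2-IST-only DHSs and 2.67% of the shared DHSs.

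**Figure D2:**
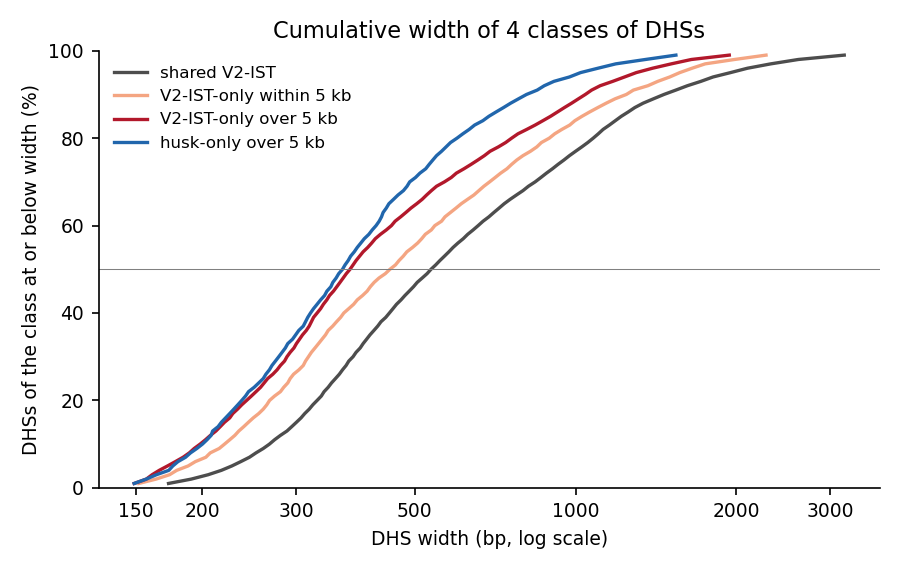
Cumulative percentage of DHSs in 4 classes at or below a given width (bp, log scale). The curves of far V2-IST-only and far husk-only DHSs run together up to their medians of 378 and 366 bp and then part, and both lie to the left of near V2-IST-only DHSs (449 bp) and shared V2-IST DHSs (536 bp).

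Read the other way, the share of V2-IST DHSs that belonged to the far class fell with width. This order was in part built into the rule, since a wider DHS more easily overlaps a husk DHS and is then shared. How large that part is was not tested. Under 200 bp, 446 of 908 V2-IST DHSs were far V2-IST-only (49.1%, 45.9% to 52.4%). The share was 33.8% between 200 and 300 bp, 23.8% between 300 and 500 bp, and 19.2% and 19.8% in the classes from 500 to 750 and 750 to 1000 bp. It was 16.2% for widths of 1000 to 1500 bp and 12.6% for widths of 1500 to 2000 bp. At 2000 bp or wider, 37 of 634 V2-IST DHSs were far V2-IST-only (5.84%, 4.26% to 7.94%). The share thus fell with width apart from a plateau between 500 and 1000 bp, where intervals overlapped. In husk the share of far husk-only DHSs fell from 23.8% under 200 bp to 0.748% (3 of 401, 0.255% to 2.18%) at 2000 bp or wider. Far V2-IST-only DHSs outnumbered far husk-only DHSs 2.21 times under 200 bp, 1.88 times from 500 to 750 bp and 4.01 times from 1000 to 1500 bp, where all V2-IST DHSs outnumbered all husk DHSs 1.07, 1.20 and 1.42 times.

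**Figure D3:**
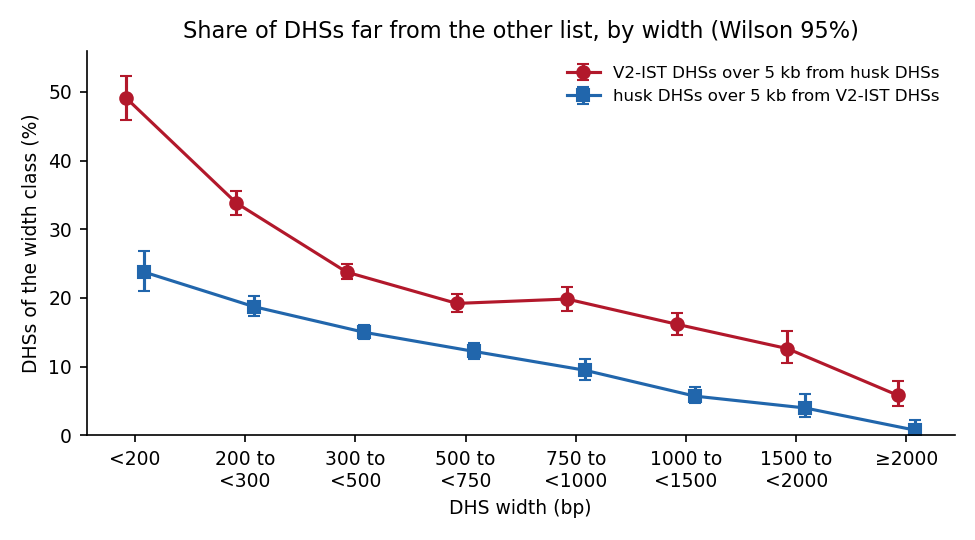
Percentage of V2-IST DHSs of each width class that were far V2-IST-only (red) and of husk DHSs that were far husk-only (blue), with Wilson 95% intervals. Both shares fall with width, from 49.1% to 5.84% in V2-IST and from 23.8% to 0.748% in husk.

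Within the far class, DHSs nearer to husk DHSs were somewhat wider. The median width was 436 bp (405 to 463 bp) at gaps of 5 to 10 kb, close to the 449 bp of the near V2-IST-only DHSs. It was 382 bp at 10 to 20 kb, 380 bp at 20 to 50 kb, 364 bp at 50 to 100 kb, 377.5 bp at 100 to 200 kb and 335.5 bp (314 to 357 bp) beyond 200 kb. The first and the last class had intervals that did not overlap, whereas the classes from 10 to 200 kb overlapped with one another.

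The 5 widest far V2-IST-only DHSs lay on 5 different chromosomes. The widest, on chromosome 1 from 40598384 to 40602321, measured 3938 bp, lay 13949 bp from the nearest husk DHS and had another far V2-IST-only DHS 2591 bp away. The second, on chromosome 6 from 31120017 to 31123552 (3536 bp), lay 46.8 kb from the nearest husk DHS, and its nearest V2-IST DHS was a shared one at 47.4 kb. The third, on chromosome 4 from 184916272 to 184919385 (3114 bp), lay in a husk-free stretch of 16.5 kb, with husk DHSs at 5879 and 7491 bp on either side. It had another far V2-IST-only DHS 573 bp away. Next came DHSs on chromosome 5 from 42045751 to 42048844 (3094 bp, gap 15.4 kb) and on chromosome 8 from 137167370 to 137170320 (2951 bp, gap 7.37 kb). Of these 5 DHSs, 4 thus lay within 20 kb of the husk list, and none was among the remote DHSs described above. The widest far V2-IST-only DHS was still narrower than the widest shared DHS of V2-IST, which measured 15625 bp.

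Far V2-IST-only DHSs were present on all chromosomes at similar shares. Chromosome 4 had the highest share of V2-IST DHSs in this class, 25.8% (461 of 1784, 23.9% to 27.9%), and chromosome 7 the lowest, 21.8% (346 of 1585, 19.9% to 23.9%). On 9 of 10 chromosomes the interval included the share of the whole list, 23.3%, and chromosome 4 was the exception. Their density ranged from 1.84 per Mb on chromosome 10 to 2.35 per Mb on chromosome 5. Husk DHSs numbered 6.15 per Mb on chromosome 4 and 7.09 per Mb on chromosome 7.

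Along the chromosomes, far V2-IST-only DHSs followed the density of all DHSs, which was highest towards the chromosome ends. When chromosomes were divided into 10 equal parts, husk DHSs numbered 3.10 per Mb in the fifth part and 14.0 per Mb in the tenth, and far V2-IST-only DHSs 0.955 and 3.96 per Mb. The outermost parts together held 34.4% of the far V2-IST-only DHSs (33.0% to 35.8%), 35.3% of the shared DHSs, 43.9% of the near V2-IST-only DHSs and 27.6% (25.7% to 29.6%) of the far husk-only DHSs. The central pair of parts held 11.0%, 10.7%, 7.04% and 11.7% of these classes, respectively. Far V2-IST-only DHSs were thus distributed much like shared DHSs, and a larger portion of them than of the far husk-only DHSs lay at the ends. Counted over the sequence that was over 5 kb from any DHS of the other list, far V2-IST-only DHSs had a density of 3.94 per Mb in the outermost and 1.17 per Mb in the central parts, and far husk-only DHSs 1.54 and 0.595 per Mb.

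The share of V2-IST DHSs that were far V2-IST-only was 22.3% (21.3% to 23.3%) in the outermost parts and 24.8% (22.9% to 26.7%) in the central parts. The intervals of these shares overlapped, and their order was not the same without the distance limit. V2-IST-only DHSs at any distance made up 36.0% of V2-IST DHSs in the outermost and 32.4% in the central parts, the opposite order. The gap to the nearest husk DHS was larger in the centre, with a median of 91.7 kb (77.7 to 108 kb) against 26.2 kb (23.7 to 29.7 kb) at the ends.

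**Figure D4:**
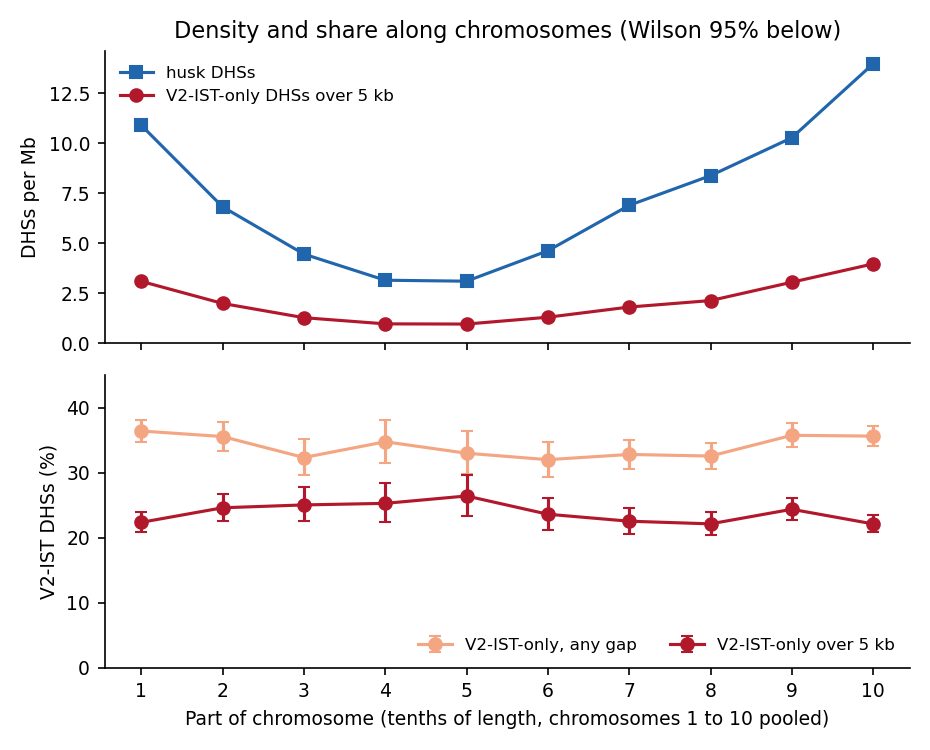
Density (DHSs per Mb, upper panel) of husk DHSs and far V2-IST-only DHSs, and percentage of V2-IST DHSs that were V2-IST-only at any distance or over 5 kb from husk DHSs (lower panel, Wilson 95% intervals), in 10 equal parts of the chromosomes. Densities are lowest in the fifth part, 3.10 and 0.955 per Mb, while the share of far V2-IST-only DHSs stays between 22.1% and 26.4%.

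Median widths were larger at the chromosome ends than in the centre in all 3 V2-IST classes, by differing amounts. Far V2-IST-only DHSs had a median of 400 bp (385 to 416 bp) in the outermost and 346 bp (329 to 360 bp) in the central parts, and shared DHSs had medians of 577.5 and 441.5 bp. The median of far V2-IST-only DHSs minus that of shared DHSs was therefore -177.5 bp at the ends and -95.5 bp in the centre. Against near V2-IST-only DHSs the difference was present at the ends, where these had a median of 480 bp (459 to 508 bp), and was not seen in the centre, where they had 344 bp (319 to 367 bp).

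The spacing of far V2-IST-only DHSs from other V2-IST DHSs was wide. Their nearest neighbour in the V2-IST list lay at a median distance of 23.8 kb (21.5 to 25.7 kb), against 7.28 kb (6.82 to 7.73 kb) for shared DHSs and 1.72 kb (1.62 to 1.82 kb) for near V2-IST-only DHSs. Another V2-IST DHS was found within 5 kb for 18.9% of the far DHSs (17.7% to 20.1%), against 43.9% of the shared and 90.1% of the near DHSs, and this share was below that of shared DHSs on 10 of 10 chromosomes. Within 50 kb the shares were 64.6% for far and 76.3% for shared DHSs. This order was in part built into the rule, since a DHS far from every husk DHS is also far from nearly all shared DHSs, which form the largest class of V2-IST. Far husk-only DHSs, which are subject to the same rule, had another husk DHS within 5 kb in 10.7% of cases (9.47% to 12.2%), where all husk DHSs did so in 37.6% and all V2-IST DHSs in 43.3% of cases.

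The nearest V2-IST DHS was another far V2-IST-only DHS in 41.5% of cases, a shared DHS in 51.1% and a near V2-IST-only DHS in 7.48%. Among the 815 far DHSs with a neighbour within 5 kb, that neighbour was far V2-IST-only for 703 (86.3%), near V2-IST-only for 93 and shared for 19, an order that again the rule largely sets. Far DHSs with such a neighbour were wider, with a median of 431 bp (408 to 461 bp), than those without, with 367 bp (360 to 377 bp). The same held for shared DHSs, with 628 and 480 bp. The 234 far DHSs with a neighbour within 1 kb had a median of 384.5 bp (356 to 436 bp). That interval overlapped the one of far DHSs without a neighbour within 5 kb. At the solitary end, 1527 far V2-IST-only DHSs had no other V2-IST DHS within 50 kb, and their median width was 347 bp (336 to 359 bp), compared with 452 bp (443 to 466 bp) for the shared DHSs without a neighbour within 50 kb. Far V2-IST-only DHSs were thus narrower than shared DHSs at every spacing that was compared.

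When far V2-IST-only DHSs within 5 kb of each other were joined into groups, 3606 stood alone and 710 (16.5%, 15.4% to 17.6%) fell into 327 groups. There were 278 groups of 2 DHSs, 43 of 3, 5 of 4 and 1 of 5. The 49 groups of 3 or more held 154 DHSs. Most of the class therefore stood apart from other DHSs of the same class. Only far V2-IST-only DHSs were joined, so a DHS that stood alone can have a V2-IST DHS of another class within 5 kb. No V2-IST DHS of any class lay within 5 kb of 3501 far DHSs. Other classes were not grouped for comparison.

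The group of 5 lay on chromosome 7 from 46258054 to 46267300 and was unlike the others. Its DHSs measured 157, 143, 136, 161 and 143 bp, all near the lower end of the width range, and covered 740 bp within 9247 bp. Gaps between them were 662, 3407, 1871 and 2567 bp. The nearest V2-IST DHS outside the group and the nearest husk DHS both lay 495 kb away. It was the 1 group of 2 or more in which all DHSs were under 200 bp, a property noted after the values were seen. Of the 446 far V2-IST-only DHSs under 200 bp, 59 were in groups.

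The groups of 4 with the most covered sequence held wider DHSs. On chromosome 1 from 298100159 to 298109279 the DHSs measured 1078, 360, 401 and 1288 bp, and the nearest husk DHS lay 41150 bp away. On chromosome 2 from 203396292 to 203404671 they measured 944, 578, 642 and 891 bp, at 83612 bp from husk DHSs. These groups had no other V2-IST or husk DHS within 30 kb of their centre. The groups on chromosome 5 from 217567494 to 217575195 (411, 209, 1735 and 240 bp) and on chromosome 6 from 160665452 to 160675866 (908, 419, 639 and 502 bp) lay nearer to other DHSs, at 11372 and 15038 bp from the nearest husk DHS.

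**Figure D5:**
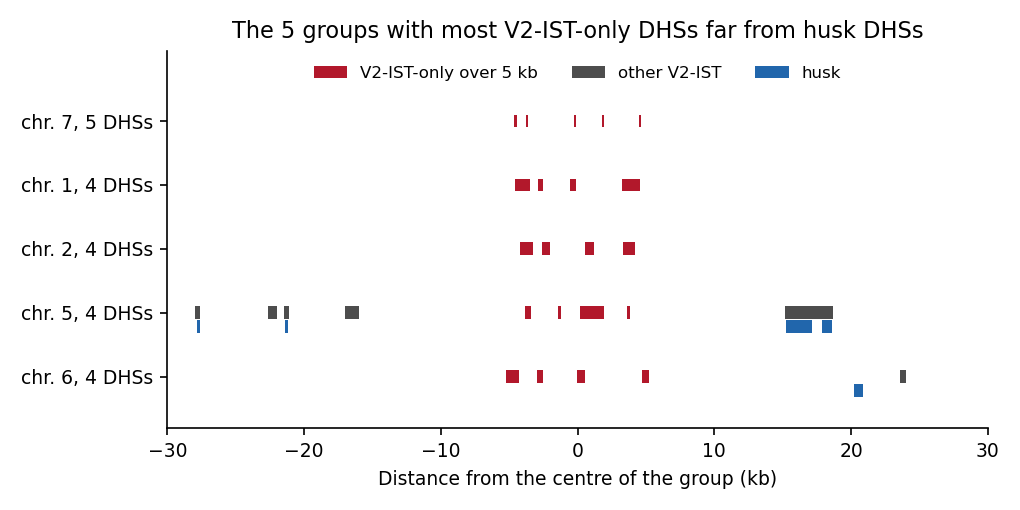
Position of DHSs within 30 kb of the centre of the 5 groups with the most far V2-IST-only DHSs, drawn to scale in kb, with far V2-IST-only DHSs in red, other V2-IST DHSs in grey and husk DHSs in blue. The group on chromosome 7 consists of 5 DHSs of 136 to 161 bp with no other DHS in view, and the group on chromosome 5 has both V2-IST and husk DHSs in view on either side.

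Finally, the far V2-IST-only DHSs were placed in the stretches between consecutive husk DHSs. Of 15251 such husk-free stretches, 10821 were longer than 10 kb and could hold a far DHS at all, and 2864 held at least 1. They contained 4300 of the far V2-IST-only DHSs, and the remaining 16 lay beyond the outermost husk DHS of their chromosome. A single far DHS was found in 1957 stretches and 2 or more in 907, which together held 2343 of them (54.3%). In 49 stretches there were 5 or more.

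Longer stretches held a far V2-IST-only DHS more often, which is in part built in because they offer more room. From the class of 20 to 50 kb upwards, they held fewer per Mb. The number per Mb was taken over whole stretches, although the rule excludes 5 kb at each end. This excluded sequence is a larger portion of short stretches, so the numbers per Mb are not strictly comparable between lengths. At a length of 10 to 20 kb, 4.77% of stretches had at least 1 (3.67% to 6.19%). The share was 17.7% at 50 to 100 kb and 43.3% at 200 to 500 kb, and it reached 65.9% (59.1% to 72.0%) beyond 1 Mb. The number per Mb of stretch was 3.42 at 10 to 20 kb, 3.97 at 20 to 50 kb, 2.89 at 100 to 200 kb and 0.911 beyond 1 Mb. For the stretches between V2-IST DHSs, the share with a far husk-only DHS was 1.79% at 10 to 20 kb and 23.6% at 200 to 500 kb, and the number per Mb was 1.25 and 0.989, respectively. Stretches beyond 1 Mb had 0.323 far husk-only DHSs per Mb.

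The largest number of far V2-IST-only DHSs in a single stretch was 7, found in 6 stretches. The shortest of these lay on chromosome 4 from 245857107 to 245982281 and was 125 kb long, with its 7 DHSs spread over 110 kb, near the end of the chromosome. The next, on chromosome 4 from 227984192 to 228896755, was 913 kb long, with 7 DHSs within 299 kb. The third, on chromosome 1 from 251575850 to 252528420, was 953 kb long, with 7 DHSs over 720 kb. In these stretches V2-IST thus had a series of open sites where the husk list was empty. Some DHSs of the stretch on chromosome 1 lay within 10 kb of each other, and spacing within stretches was not summarised.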

How the data were processed

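DNase-seq reads were aligned by the authors with BWA to the maize AGPv4 assembly, filtered with SAMtools and passed to MACS2, which called peaks per biological replicate against naked DNA. The authors pooled technical libraries and kept peaks with a large overlap between replicates. The deposited lists hold start and end positions in base pairs. The labels name an older build, but the AGPv4 coordinates of enhancer candidates in the study match the V2-IST list. The lists give no read numbers, and the library depths stated by the study were not used here, so the precision of a single DHS is not given. Starts were taken as counted from 0.

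Gaps were computed between edges, and chromosome length was the largest end in either list. Shares have Wilson intervals, and medians have exact binomial intervals (95%). The rule for named regions was the 5 widest and 5 most remote DHSs, 3 on either side of the limit, the 5 groups with most DHSs (ties by covered length), the 3 stretches with most DHSs (ties by shorter length), and the extreme chromosomes. The DHSs and these rules were chosen with earlier results of these data known. Genomic classes, genes and sequences were not analysed here, as an AGPv4 annotation was not used. Code was tested on simulated lists. Alternatives changed the limit, minimum width, list length, parts and spacing. Analyses ran in Python 3.11.15 with pandas 2.3.3, numpy 2.4.6 and scipy 1.17.1, and figures were drawn with matplotlib 3.10.9.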

Additional observations from a re-analysis of the deposited data

How the results depend on the processing

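No paired analysis was possible because the replicates of a tissue are merged into 1 list, and for the same reason leaving out a replicate and a stricter peak threshold were not run. The class of far V2-IST-only DHSs made up 28.6%, 19.5% and 16.0% of V2-IST DHSs at limits of 2, 10 and 20 kb, and 24.2% with gaps between midpoints. It made up 28.8% with a minimum width of 300 bp in both lists. It made up 20.1% with lists of equal length and 26.6% among the 10000 widest DHSs of each list. Where narrow husk DHSs were removed, V2-IST DHSs that had overlapped or neighboured them could enter the class. The 28.8% and 26.6% are therefore not the far share of wide V2-IST DHSs under the main rule. Leaving out each chromosome gave 23.1% to 23.5% and median widths of 375 to 380 bp. The median width was 391.5 bp at 2 kb, 366 bp at 20 kb, 367 bp without neighbours within 5 kb, 400 bp in the outermost and 346 bp in the central parts, and 473 bp with the minimum width. Minus the shared median it was -158 bp, and -113 bp without neighbours, -177.5 bp and -95.5 bp in these parts, and -195 bp with the minimum width. It stayed below the shared median in every alternative run for it. The outermost parts held 28.8% of the class at 20 kb, 37.5% without a limit and 35.9% by covered base pairs. With 20 parts the outermost pair held 19.7%. The outermost and central pairs of 20 parts are shorter, so values with 20 parts cover less sequence than the others. The share at the ends minus that in the centre was -2.50 percentage points, -8.30 at 20 kb, -0.876 with 20 parts, -2.87 by covered base pairs and 3.57 without a limit, where it reversed. Neighbours within 2 and 10 kb were found for 9.64% and 34.7% of far and 27.5% and 54.3% of shared DHSs. Groups held 8.90%, 22.1% and 26.6% of the class when joined at 2, 10 and 20 kb. Far husk-only DHSs made up 9.27% of husk DHSs at 20 kb, 21.2% with lists of equal length, 15.7% with the minimum width and 26.95% among the 10000 widest, and the ratio of the far classes was 0.95 with lists of equal length, 2.32 with the minimum width and 0.99 among the 10000 widest. The last list length, and the minimum width for the husk class, were chosen after seeing the data. Where narrow V2-IST DHSs were removed, husk DHSs could likewise enter the far husk-only class. The ratios with changed lists are therefore not those of wide DHSs under the main rule. A list of equal length drops V2-IST DHSs under 284 bp while narrow husk DHSs stay. The 10000 widest DHSs were taken from each list on its own, so the narrowest widths kept were not set equal.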
